A study of Mus musculus with 6 samples.

Results

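The EGF receptor family is described here through 10 genes measured in mouse liver: the receptors Egfr, Erbb2 and Erbb3, the ligands Egf, Tgfa, Areg, Ereg, Btc and Hbegf, and the receptor inhibitor Errfi1. The genes were chosen by name, with earlier results of these data known, and all 10 were found among the 54446 genes of the count table. Poly-A RNA was sequenced from liver cells at week 0, week 2 and week 7 of a treatment, with 2 libraries per week and 6 in all. The series title names the treatment as MET/CAT with SB transposase. A transposase is an enzyme that inserts DNA into a genome, and what CAT stands for is not spelled out. The labels state a mixed FVB/N and C57BL/6 mouse line for the first library and change only the number after C57BL/ in the others. They give neither age nor sex, do not say how or into which cells the DNA was delivered, and do not say whether replicates were separate animals, so p-values measure the spread between these libraries only. No untreated mice of weeks 2 or 7 were analysed here.

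EGF receptors are membrane proteins that pair when a ligand binds and then signal through the RAS to ERK and PI3K to AKT routes. The ligands are made as membrane-bound precursors and are cut free by surface proteases. In liver the EGF receptor is abundant on hepatocytes and is known for its part in regeneration after tissue loss. Errfi1, also called Mig6, is induced by the signal and binds the receptor kinase, so it acts as feedback.

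Library totals ran from 49353453 to 58434358 deposited counts. Xist, the RNA of the inactive X chromosome, reached 13236 and 12804 deposited counts in the week 2 pair, against 0 to 15 elsewhere. The Y-linked gene Ddx3y had 0 counts in both week 2 libraries and 1897 to 2303 in the others. Week 2 thus differed from weeks 0 and 7 in typed sex as well as in time, and the effects of time and sex cannot be told apart in comparisons with week 2. Hepatocyte markers fitted the labelled tissue: 6 of 6 were detected in every library, with a summed level of 77060 to 115700 CPM (deposited counts scaled to a common library total, with TMM factors). In bulk tissue, fewer cells of a type and less RNA per cell cannot be told apart.

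Promoter sequence from RefSeq (GRCm38.p6) was matched by symbol for 7 of the 10 genes. Erbb3, Ereg and Hbegf had no entry. Windows are shown for the receptor, the ligand and the inhibitor whose levels changed between week 0 and week 7, and for Areg, which was listed at 0 throughout. Each is the 250 bases before an annotated start, on the plus strand. Of the 2 Errfi1 starts in RefSeq, the window with motif matches is shown. Capitals mark matches, on either strand, to any of 6 motifs. The GC box was searched as GGGCGG and the TATA box as TATAAA. The cAMP response element was searched as TGACGTCA. The AP-1 site was searched as TGANTCA, the STAT site as TTCNNNGAA, and the TCF/LEF site as CTTTGAT.
Egfr, chr11:16751953-16752202: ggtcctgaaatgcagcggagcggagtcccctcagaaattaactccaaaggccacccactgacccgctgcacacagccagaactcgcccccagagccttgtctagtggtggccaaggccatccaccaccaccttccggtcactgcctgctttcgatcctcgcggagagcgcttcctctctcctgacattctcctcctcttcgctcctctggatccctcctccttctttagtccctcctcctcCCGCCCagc
Errfi1, chr4:150854820-150855069: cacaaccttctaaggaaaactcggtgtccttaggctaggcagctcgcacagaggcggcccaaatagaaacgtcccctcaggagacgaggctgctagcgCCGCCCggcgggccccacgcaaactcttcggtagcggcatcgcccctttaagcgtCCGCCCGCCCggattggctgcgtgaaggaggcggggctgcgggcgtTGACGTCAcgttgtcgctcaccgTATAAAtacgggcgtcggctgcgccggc
Tgfa, chr6:86194972-86195221: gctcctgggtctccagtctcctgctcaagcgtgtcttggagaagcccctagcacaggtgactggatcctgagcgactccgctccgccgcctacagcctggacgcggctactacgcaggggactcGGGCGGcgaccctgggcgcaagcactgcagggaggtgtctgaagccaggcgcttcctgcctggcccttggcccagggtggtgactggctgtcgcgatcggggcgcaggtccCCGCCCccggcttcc
Areg, chr5:91139349-91139598: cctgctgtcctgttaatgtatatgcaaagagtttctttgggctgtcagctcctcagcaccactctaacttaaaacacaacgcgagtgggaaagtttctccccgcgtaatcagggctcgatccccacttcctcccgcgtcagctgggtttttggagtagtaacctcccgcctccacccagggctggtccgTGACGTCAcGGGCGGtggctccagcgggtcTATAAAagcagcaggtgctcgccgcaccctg

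The Errfi1 and Areg windows looked alike in these motifs: each held a TATA box, a cAMP response element and at least 1 GC box. The response element began 51 bases before the Errfi1 start and 61 bases before the Areg start, and the TATA boxes began 28 and 31 bases before. The Egfr window held 1 GC box, and the Tgfa window held 2, with none of the other motifs. Errfi1 had 3 GC box matches, of which those that began 97 and 93 bases before the start overlapped. Among 32851 RefSeq windows of this length, 32.7% held a GC box, 12.4% a TATA box, 1.55% a cAMP response element, 6.75% an AP-1 site, 7.02% a STAT site and 3.21% a TCF/LEF site. The Errfi1 window also overlaps an exon of the gene 1700045H11Rik in the GENCODE M21 annotation. The other 3 windows overlap no annotated exon. Matches describe letters only.

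Between week 0 and week 7, the EGF receptor gene fell while the ligand gene Tgfa and the inhibitor gene Errfi1 rose, each by close to the same ratio. Egfr went from 625 ± 28.8 to 345 ± 3.10 CPM (SD, n = 2), Tgfa from 14.1 ± 0.198 to 25.6 ± 2.56 CPM, and Errfi1 from 704 ± 17.2 to 1286 ± 3.48 CPM. The other receptor with a well measured transcript, Erbb3, was not called. At week 2, Egfr was lower still, at 198 ± 1.76 CPM, and it was the only member called against week 0. Of the 10 members, 9 passed the filter on low counts. Over the 3 weeks, 3 of these 9 were called (Egfr, Tgfa and Errfi1), where edgeR called 26.4% of all 15368 genes tested (quasi-likelihood test, Benjamini-Hochberg adjusted p under 0.05).

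**Figure D1:**
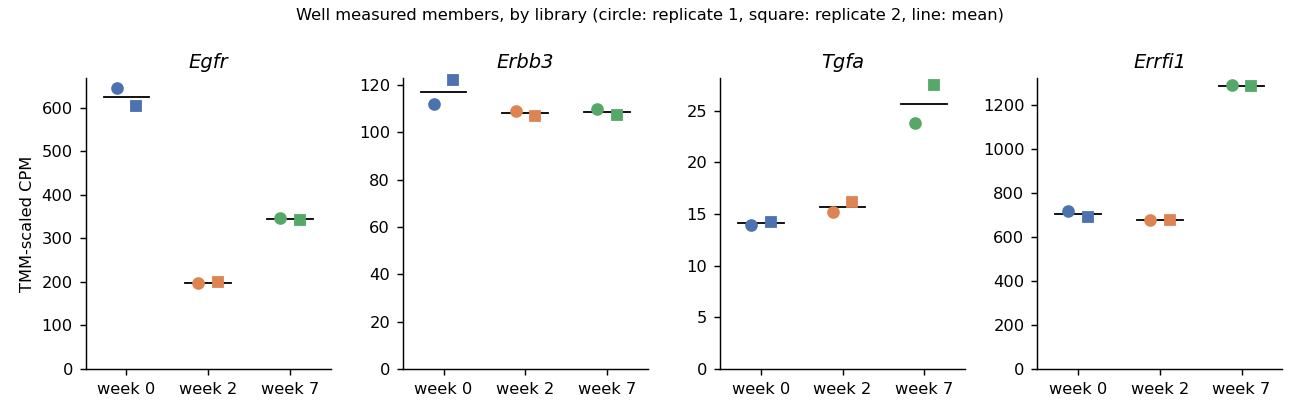
TMM-scaled CPM (vertical axis, from 0) of Egfr, Erbb3, Tgfa and Errfi1 at weeks 0, 2 and 7, with a circle for replicate 1, a square for replicate 2 and a line for the mean of 2 libraries. Egfr was lowest at week 2 and Tgfa and Errfi1 highest at week 7, while the Erbb3 points lie between 107 and 122 CPM.

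Egfr (ENSMUSG00000020122) encodes the receptor that gives the family its name and binds EGF, TGF-alpha, amphiregulin and the other ligands listed. The week 0 libraries had 645 and 605 CPM, the week 2 pair 197 and 199, and the week 7 pair 348 and 343. The weeks did not overlap, and libraries of the same week lay close together. Egfr was 1.81-fold lower at week 7 than at week 0, with a log2 fold change of -0.86 (SE 0.041, edgeR adjusted p = 4.01e-06). At week 2 it was 3.16-fold lower than at week 0 (log2 fold change -1.66, SE 0.042, adjusted p = 1.63e-08). It was 1.75-fold higher at week 7 than at week 2 (adjusted p = 2.56e-06). The order of levels was therefore week 0, then week 7, then week 2, with each step larger than the spread between replicates. The lowest level was in the libraries typed as female, and the drop from week 0 to week 7 was between libraries of the same typed sex. Hepatocyte markers moved as well, by less: 4 of 6 were called lower and 1 higher at week 2 than at week 0, and 3 lower and 1 higher at week 7. At week 2, Apoa1 was 1.499-fold and Ttr 1.463-fold lower, while Alb, which makes up most of the summed marker level, was 1.458-fold higher. At week 7, Alb was 1.207-fold and Ttr 1.203-fold lower and Cps1 1.12-fold higher. Their part in the Egfr values was not tested.

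Erbb3 (ENSMUSG00000018166) encodes a receptor for neuregulins whose own kinase is weak and which signals in pairs with other members. Its level was 112 and 122 CPM in week 0, 109 and 107 in week 2, and 110 and 107 in week 7 libraries. All weeks lay within a narrow band, with the highest values at week 0. The log2 fold change was -0.11 at week 7 against week 0, with a 95% interval from -0.24 to 0.028, and -0.12 at week 2 against week 0, with an interval from -0.25 to 0.021 (edgeR adjusted p = 0.29 and 0.235). Levels of Erbb3 at weeks 2 and 7 did not differ beyond the spread of their replicates (adjusted p = 0.964).

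Erbb2 (ENSMUSG00000062312) encodes the receptor that has no ligand of its own and serves as a partner. It was near the lower end of detection, with 55 and 69 counts in week 0, 114 and 148 in week 2, and 16 and 75 in week 7 libraries. The week 7 libraries lay far apart, with 1 below and 1 just above both libraries of week 0. No comparison of Erbb2 was called (adjusted p = 0.684, 0.457 and 0.205 for week 7 against week 0, week 2 against week 0 and week 7 against week 2). The call between weeks 7 and 2 depended on 1 library: without week 7 replicate 2 the adjusted p was 0.0159 and the log2 fold change -2.88, against -1.32 with it. A read pair was taken to be worth about 4 deposited counts, so 16 counts stand for only a few read pairs.

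Per length of annotated exon, Egfr and Erbb3 made up nearly all receptor RNA of the family, and their balance moved with Egfr. Egfr was 73.7 ± 2.12% of the summed CPM per kb of Egfr, Erbb2, Erbb3 and Erbb4 at week 0, 48.7 ± 0.446% at week 2 and 62.6 ± 0.0141% at week 7 (SD, n = 2). Erbb3 was 26.0 ± 2.05%, 50.1 ± 0.608% and 37.0 ± 0.325% of the sum, and Erbb2 between 0.116% and 1.34% in any library. The sum itself was 74.9 ± 1.30 CPM per kb at week 0, 35.9 ± 0.00707 at week 2 and 48.7 ± 0.431 at week 7. At week 2 the level of Erbb3 per kb was 1.03 ± 0.0219 times that of Egfr. With the longest coding transcript as the length, this ratio was 0.926, so which of them was higher at week 2 depends on the length used.

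**Figure D2:**
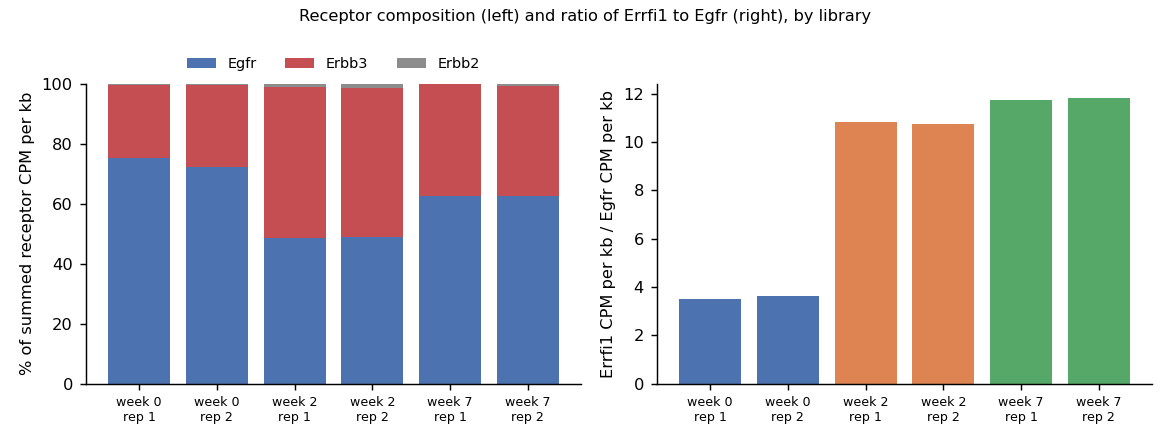
Left, share of Egfr, Erbb3 and Erbb2 in the summed receptor CPM per kb of each library in percent, where Erbb4 fills any remainder; right, ratio of Errfi1 to Egfr in CPM per kb. Egfr made up 72.2% to 75.2% of the sum at week 0 and 48.4% to 49.1% at week 2, and the ratio of Errfi1 to Egfr was 3.51 and 3.62 at week 0 and above 10.7 in the other libraries.

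Tgfa (ENSMUSG00000029999), which encodes the ligand TGF-alpha, was the only ligand gene of the 6 with a level well above the floor. Week 0 gave 13.9 and 14.2 CPM, week 2 gave 15.2 and 16.2, and week 7 gave 23.8 and 27.4. Both week 7 libraries lay above all others, and the week 2 values were slightly above those of week 0. Tgfa rose 1.82-fold from week 0 to week 7 (log2 fold change 0.86, SE 0.12, edgeR adjusted p = 0.00182) and 1.63-fold from week 2 to week 7 (adjusted p = 0.00322). The difference between week 2 and week 0 was not called (log2 fold change 0.16, 95% interval -0.11 to 0.42, adjusted p = 0.432). Per kb, Tgfa was 83.0 ± 0.474% of the summed level of the 6 listed ligands at week 0, 80.9 ± 3.88% at week 2 and 89.7 ± 4.66% at week 7. The neuregulins are not in this sum. Of these, Nrg4 had a per-kb level of 1.46, 4.30 and 2.01 CPM in weeks 0, 2 and 7, against 2.17, 2.42 and 3.95 for Tgfa.

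Btc (ENSMUSG00000082361) encodes betacellulin, a ligand of both the EGF receptor and ERBB4. Counts were 28 and 41 in week 0, 76 and 66 in week 2, and 95 and 50 in week 7 libraries. All libraries of weeks 2 and 7 were above those of week 0, and no comparison was called (edgeR adjusted p = 0.26 for week 7 and 0.353 for week 2 against week 0). The 95% interval of the log2 fold change at week 7 ran from -0.17 to 2.08.

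Hbegf (ENSMUSG00000024486), which encodes the heparin-binding ligand, gave 50 and 53 counts in week 0, 94 and 61 in week 2, and 23 and 17 in week 7. Those of week 7 were the lowest and overlapped neither of the other weeks. Hbegf fell 3.42-fold between week 2 and week 7, from 1.30 ± 0.380 to 0.379 ± 0.0662 CPM (log2 fold change -1.77, SE 0.53, adjusted p = 0.0469). Against week 0 the log2 fold change at week 7 was -1.46 (adjusted p = 0.11), which was not called. The call between weeks 2 and 7 was weak: with any single library of the 6 left out the adjusted p lay between 0.0548 and 0.258, and it was 0.0756 with the replicate block and 0.0857 with limma voom. Markers of Kupffer cells, the liver macrophages, moved in the same order: the summed level of 7 markers was 391 to 399.7 CPM at week 0, 537.8 to 541.2 at week 2 and 283.7 to 290.1 at week 7, and 7 of 7 were called lower at week 7 than at week 2. The 6 stellate cell and fibroblast markers summed to 165.4 to 171.4, 220.8 to 222.6 and 124 to 126.8 CPM. Of these, 5 were called lower at week 7 than at week 2. Within this sum Lrat fell at each step (32.4, 21.8 and 7.41 CPM), and Reln was highest at week 7 (33.1, 49.6 and 53.2 CPM). The liver endothelial sum had the same order as Hbegf, at 225.5 to 241, 279 to 287.9 and 209.2 to 209.9 CPM. Of its 6 markers, 4 were called lower at week 7 than at week 2. Hepatocyte and erythroid sums had this order as well. None of these markers was at 0 in all libraries, and their part in the Hbegf values was not tested.

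The remaining ligands were at or near the limit of detection. The floor was set at 12 deposited counts per library, or 3 read pairs, which is 0.200 to 0.249 CPM. It covers counting error only. Egf (ENSMUSG00000028017), the founding ligand, gave 12 and 12 counts in week 0, 0 and 18 in week 2, and 5 and 7 in week 7 libraries. Ereg (ENSMUSG00000029377), which encodes epiregulin, had 20 and 0, 12 and 0, and 20 and 4 counts. In both genes 1 or 2 libraries exceeded the floor, so no fold is given, and neither was called in any comparison. Areg (ENSMUSG00000029378), which encodes amphiregulin, had 0 counts in all 6 libraries and did not pass the filter. The 5 markers of kidney and salivary gland, organs known to make much EGF, were at 0 counts in all libraries.

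**Figure D3:**
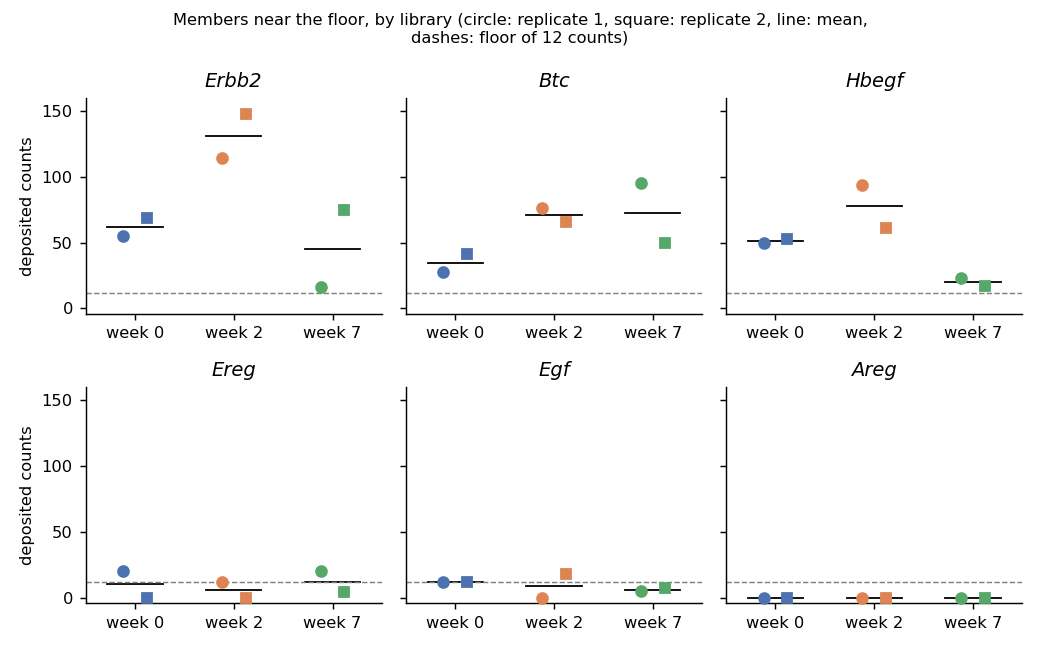
Deposited counts (vertical axis) of Erbb2, Btc, Hbegf, Ereg, Egf and Areg at weeks 0, 2 and 7, with a circle for replicate 1, a square for replicate 2, a line for the mean and dashes at the floor of 12 counts. All values of Egf, Ereg and Areg are at 20 counts or fewer, and Hbegf was lowest at week 7, at 23 and 17 counts.

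Errfi1 (ENSMUSG00000028967) had the highest level per length of the 10 members, ranking 225 of 15368 tested genes by mean CPM per kb, against 1190 for Egfr and 1877 for Erbb3. Week 0 gave 716 and 692 CPM, week 2 gave 675 and 676, and week 7 gave 1288 and 1283. Weeks 0 and 2 were close, and both week 7 libraries were far above them. Errfi1 rose 1.83-fold from week 0 to week 7 (log2 fold change 0.87, SE 0.031, edgeR adjusted p = 5.93e-07) and 1.90-fold from week 2 to week 7 (adjusted p = 1.38e-07). The log2 fold change between week 2 and week 0 was -0.059, with a 95% interval from -0.13 to 0.011, and was not called (adjusted p = 0.233). With libraries scaled by total counts only, this small difference had the opposite sign, at 0.032.

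The ratio of Errfi1 to Egfr RNA within a library does not depend on the scaling. Per kb it was 3.51 and 3.62 in week 0, 10.8 and 10.7 in week 2, and 11.7 and 11.8 in week 7 libraries. The values of weeks 2 and 7 did not overlap but lay near each other, although at week 2 only Egfr was called against week 0 and at week 7 both genes were. For the ligand, Egfr exceeded Tgfa 26.5-fold and 24.4-fold per kb in week 0, 7.42-fold and 7.06-fold in week 2, and 8.36-fold and 7.17-fold in week 7 libraries, where weeks 2 and 7 overlapped. These ratios are given as values with no test, and they share their libraries and Egfr.

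By comparison, 3 of the 9 tested members were called at week 7 against week 0, 2 higher and 1 lower, where 13.8% of all genes were called, 7.58% higher and 6.23% lower (1165 and 958 genes; 1321 and 784 with total counts only). At week 2 against week 0 the count was 0 higher and 1 lower, against 18.6% of all genes, 9.81% higher and 8.81% lower (1508 and 1354 genes; 2007 and 913 with total counts only). At week 7 against week 2 it was 3 higher (Egfr, Tgfa and Errfi1) and 1 lower (Hbegf), against 19.8% of all genes, 10.1% higher and 9.73% lower (1545 and 1495 genes; upper-quartile scaling gave 1258 and 1799, and total counts alone 1248 and 1784). Total counts only moved the median log2 fold change of all genes at week 2 against week 0 from 0.014 to 0.105. The median log2 fold change of the 9 members was -0.11 at week 7 and -0.059 at week 2 against week 0, where the median of all genes was 0.0016 and 0.014. It was 0.20 at week 7 against week 2, with -0.0042 for all genes. The calls for Egfr, Tgfa and Errfi1 at week 7 against week 0, and for Egfr at week 2, held under all 16 alternative fits run for each, with log2 fold changes from -0.90 to -0.81 for Egfr, 0.76 to 0.96 for Tgfa and 0.84 to 0.91 for Errfi1 at week 7 and from -1.70 to -1.57 for Egfr at week 2. The comparisons share libraries and are not independent of each other.

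**Figure D4:**
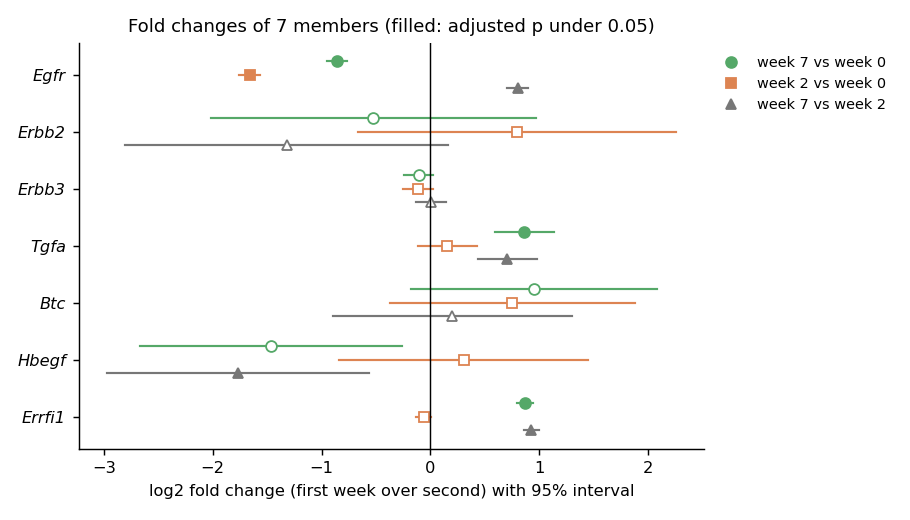
Log2 fold changes (horizontal axis, first week over second) of 7 members with 95% intervals, for week 7 against week 0, week 2 against week 0 and week 7 against week 2; filled symbols mark an adjusted p under 0.05. Egfr lies at -0.86 and -1.66 against week 0, and Tgfa and Errfi1 lie at 0.86 and 0.87 at week 7, while the intervals of Erbb2 and Btc cross 0.

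Of the receptor and ligand genes of the family that are not among the 10, Nrg4 stood out in level. Nrg4 encodes neuregulin 4, a ligand of ERBB4. Counts were 427 and 440 in week 0, 1505 and 1605 in week 2, and 721 and 568 in week 7 libraries. Week 2 was far above both other weeks. Nrg4 was 2.95-fold higher at week 2 than at week 0, at 26.1 against 8.84 CPM (edgeR adjusted p = 7.11e-05), and 2.13-fold lower at week 7 than at week 2 (adjusted p = 0.000602). Its highest level was thus in the libraries typed as female, where Egfr was lowest. At week 7 against week 0 it was not called (log2 fold change 0.47, adjusted p = 0.0546), and 4 of 16 alternatives called it: total counts only (0.0445), no filter (0.0405), DESeq2 (0.0287) and the fit without week 7 replicate 2 (0.0465). Its receptor gene Erbb4 gave 8 and 12 counts in week 0, 21 and 0 in week 2, and 0 and 0 in week 7 libraries. Nrg1, a ligand of ERBB3 and ERBB4, had 14 to 48 counts and was not called. Nrg2, Nrg3 and Epgn had 0 counts in all libraries.

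Among 8 genes of ligand shedding and transport, 7 were tested, and 2 rose and 0 fell at week 7 against week 0, where 7.58% of all genes were called higher and 6.23% lower. Both serve the protease ADAM17, which frees several of the ligands: Rhbdf2 encodes its escort iRhom2, and Frmd8 encodes a protein that stabilises iRhoms. Frmd8 went up 1.95-fold, with 11.0 CPM at week 0 and 21.4 at week 7 (adjusted p = 0.00452). Rhbdf2 went up 1.68-fold, with 4.57 and 7.70 CPM (adjusted p = 0.0185). At week 2 against week 0, 1 of the 7 was called, against 18.6% of all genes: Rhbdf2, at 12.0 CPM (2.63-fold higher, adjusted p = 0.000481). The Rhbdf2 call at week 7 was lost without week 0 replicate 1, week 0 replicate 2 or week 7 replicate 2 (adjusted p = 0.0646, 0.0797 and 0.0975). At week 7 against week 2, Frmd8 was higher (adjusted p = 0.0083; 0.0607 without week 2 replicate 1, 0.0514 without week 7 replicate 2) and Rhbdf2 lower (0.024; 0.087 to 0.13 when week 2 replicate 1, week 2 replicate 2 or week 7 replicate 1 was left out). Adam17 itself had 22.2, 24.7 and 20.2 CPM at weeks 0, 2 and 7 and was not called.

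Of 17 adaptor and RAS to ERK cascade genes, edgeR called 0 at week 7 against week 0, where 13.8% of all genes were called (2 cascade genes were higher and 0 lower at an unadjusted p under 0.05, and DESeq2 and limma voom called 0). The week 0 libraries of the adaptor gene Grb2 lay apart, at 43.7 and 23.8 CPM. Without week 0 replicate 1, its log2 fold change was 1.01 at week 7 and 1.09 at week 2 against week 0. With all 6 libraries these values were 0.51 and 0.59. At week 2, 1 cascade gene rose and 1 fell, where 18.6% of all genes were called. Shc1, an adaptor of activated receptors, fell from 61.6 to 45.9 CPM at week 2 (adjusted p = 0.00555), and Gab2, a docking protein, rose from 2.06 to 4.53 CPM (adjusted p = 0.0119). Leaving out replicate 2 of week 0 gave an adjusted p of 0.0654 for Gab2, and leaving out replicate 2 of week 2 gave 0.083. At week 7 against week 2, 3 rose and 1 fell, a share near the 19.8% of all genes. Sos1, which loads RAS with GTP, was at 28.3 and 38.0 CPM (adjusted p = 0.0102), and lost its call on leaving out replicate 1 of week 2 or of week 7 (0.0676 for both). Shc1 also rose from week 2 to week 7 (adjusted p = 0.0165; 0.109 and 0.0759 on leaving out week 2 replicate 1 or week 7 replicate 2), and Gab2 was the gene that fell (0.0407; 0.0618 with the replicate block, and 0.0967 to 0.202 on leaving out any of the 4 libraries of these weeks).

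Of 9 PI3K to AKT genes, 1 rose and 0 fell at week 7 against week 0, a share near the 13.8% of all genes. At week 2, 2 rose and 1 fell, where 18.6% of all genes were called. Pik3r1, a regulatory subunit of PI3K, rose from 67.5 to 84.1 CPM at week 7 (adjusted p = 0.0352), a call lost with the replicate block (0.0684) and without week 0 replicate 2, week 7 replicate 1 or week 7 replicate 2 (0.181, 0.0846 and 0.142). At week 2, Pik3r1 was at 84.7 CPM (adjusted p = 0.0242; 0.141 and 0.152 on leaving out replicate 2 of week 0 or of week 2). Between week 2 and week 7, 1 gene rose, Pdpk1, and 1 fell, Akt1, a share near the 19.8% of all genes. Pdpk1, the kinase PDK1 that activates AKT, was at 39.0, 29.3 and 39.8 CPM in weeks 0, 2 and 7, called lower at week 2 than at week 0 (adjusted p = 0.0149) and higher at week 7 than at week 2 (0.0108). Each Pdpk1 call was lost on leaving out some single libraries (0.0569 to 0.0988 for week 2 against week 0 without week 0 replicate 1, week 0 replicate 2 or week 2 replicate 1, and 0.0687 to 0.0761 for the later step without week 2 replicate 1 or week 7 replicate 1). Akt1, a kinase of this route, was highest at week 2, with 75.5, 105.6 and 79.6 CPM at weeks 0, 2 and 7 (adjusted p = 0.0125 for week 2 against week 0; 0.059 to 0.091 without any 1 of the 4 libraries compared, and 0.025 for the later fall, which was 0.0636 to 0.119 without week 2 replicate 1, week 2 replicate 2 or week 7 replicate 2). Median log2 fold changes of these lists at week 7 against week 0 were 0.072 for the cascade and 0.076 for PI3K to AKT. The week 2 libraries of Akt2 lay far apart, at 81.0 and 161.5 CPM, and Akt2 was not called. Without week 2 replicate 2, its log2 fold change was -0.858 at week 2 against week 0 and 1.043 at week 7 against week 2. With all 6 libraries these values were -0.279 and 0.463.

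Of 14 genes that limit receptor signalling or promote its breakdown, 1 rose and 0 fell at week 7 against week 0, a share of risen genes near the 7.58% of all genes. It was Cblc, which encodes a ubiquitin ligase of the CBL family, at 18.7 and 25.2 CPM (adjusted p = 0.0341). This call was lost in 8 of 16 alternatives, among them each fit that left out 1 of the 6 libraries (0.0511 to 0.178). At week 7 against week 2, where 10.1% of all genes were called higher, 2 genes rose and 0 fell: Cblc (adjusted p = 0.00732; 0.0566 without week 2 replicate 2) and Lrig3, of the LRIG family that restrains receptor signalling, at 6.50 and 10.2 CPM (0.0263; 0.0544 to 0.151 on leaving out any of the 4 libraries of these weeks). At week 2 against week 0, 1 of 14 was called, against 18.6% of all genes: Sh3kbp1, which encodes a CBL partner, at 1.85 and 3.84 CPM (adjusted p = 0.0343, lost in 6 of 16 alternatives, at 0.0516 to 0.228 when a library of week 0 or week 7 or replicate 2 of week 2 was left out, and 0.0539 with the 4 libraries compared only). Rhbdf2, Gab2 and Sh3kbp1 were each highest at week 2, as were the Kupffer cell sum given above and the sum of 5 T, NK and B cell markers (1.88 to 2.18 CPM at week 0, 5.72 to 6.45 at week 2 and 1.72 to 2.86 at week 7, with 0 of 5 at 0 in all libraries). Of these 5 markers, 0 were called at week 2 against week 0. The sums of hepatocyte, cholangiocyte, liver endothelial, stellate cell and fibroblast, monocyte and neutrophil, and erythroid markers were also highest at week 2. The part of any cell type in the Rhbdf2, Gab2 and Sh3kbp1 values was not tested. Cbl, Cblb and the LRIG genes were not called against week 0. The week 7 libraries of Cbl lay far apart, at 4.59 and 14.0 CPM. Without week 7 replicate 2, its log2 fold change at week 7 against week 0 was -0.98, and with it 0.035. Hgs was left out because its counts are split over 2 identifiers.

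ERK feedback and early response genes, which ERK signalling from many receptors induces, had 9 risen and 0 fallen of 13 tested at week 7 against week 0, with a median log2 fold change of 1.06, where 7.58% of all genes were called higher. This list was chosen with earlier results of these data known, so its counts beside those of all genes are a description and no independent test. At week 2 against week 0, 7 of its genes rose and 0 fell (median 0.81), where 9.81% of all genes were called higher. Of these, 6 were called higher at both weeks: Dusp5, Dusp6, Egr1, Ier3, Phlda1 and Spred1. The remaining gene called at week 2 was Spry2, an inhibitor of receptor tyrosine kinase signalling, with an adjusted p of 0.0497 that rose to 0.0505 to 0.347 with any single library left out and to 0.0513 with the replicate block. Dusp5 and Ier3 also lost their week 2 call without week 2 replicate 2 (0.12 and 0.0732), which left 4 genes called higher, and Dusp5 without week 0 replicate 2 (0.0983). At week 7, the Ier3 call (adjusted p = 0.0365) was lost in 8 of 16 alternatives, at up to 0.142 without week 7 replicate 1, and the count of the list was 6 without week 7 replicate 1, without week 7 replicate 2 or with the replicate block. The week 7 calls of Spred2 and Dusp4 (edgeR adjusted p = 0.0485 and 0.0357) were weak as well. With the replicate block their adjusted p was 0.0819 and 0.0575. For Spred2 it was 0.0554 with upper-quartile scaling and with only the 4 libraries compared. Spred2 also lost its call with any single library left out, at log2 fold changes of 0.449 to 0.638 against 0.545 with all libraries. Dusp4 lost its call without week 0 replicate 1, week 7 replicate 1 or week 7 replicate 2, at 1.14 to 1.645 against 1.601. Phlda1, an early response gene, had 43.7, 134.9 and 353 CPM in weeks 0, 2 and 7 (adjusted p = 3.22e-08 for week 7 and 3.41e-07 for week 2 against week 0). Dusp6, the phosphatase of ERK, rose 1.75-fold at week 2, from 30.3 to 53.2 CPM (adjusted p = 0.000125). The receptor tyrosine kinase feedback gene Spry4 rose from 6.06 to 24.2 CPM at week 7 (adjusted p = 2.41e-05). At week 7 against week 2 the list had 4 risen and 1 fallen genes, where 10.1% and 9.73% of all genes were called. Of the risen genes, Dusp4 lost its call without any single library of these weeks, at log2 fold changes of 1.317 to 1.87 against 1.567. The fallen gene was Spry2, at 2.24 and 0.498 CPM (adjusted p = 0.0153). On leaving out week 2 replicate 2 or week 7 replicate 1 its adjusted p was 0.151 or 0.0856. The sum of 5 markers of dividing cells was 11.9 to 12.5 CPM at week 0 and 22.1 to 25.0 CPM in the other libraries. Of the 5, 4 were called higher at week 7 and 3 at week 2 against week 0. Top2a was not called, at 5.02, 6.13 and 4.40 CPM in weeks 0, 2 and 7. The part of dividing cells in the ERK feedback list was not tested.

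**Figure D5:**
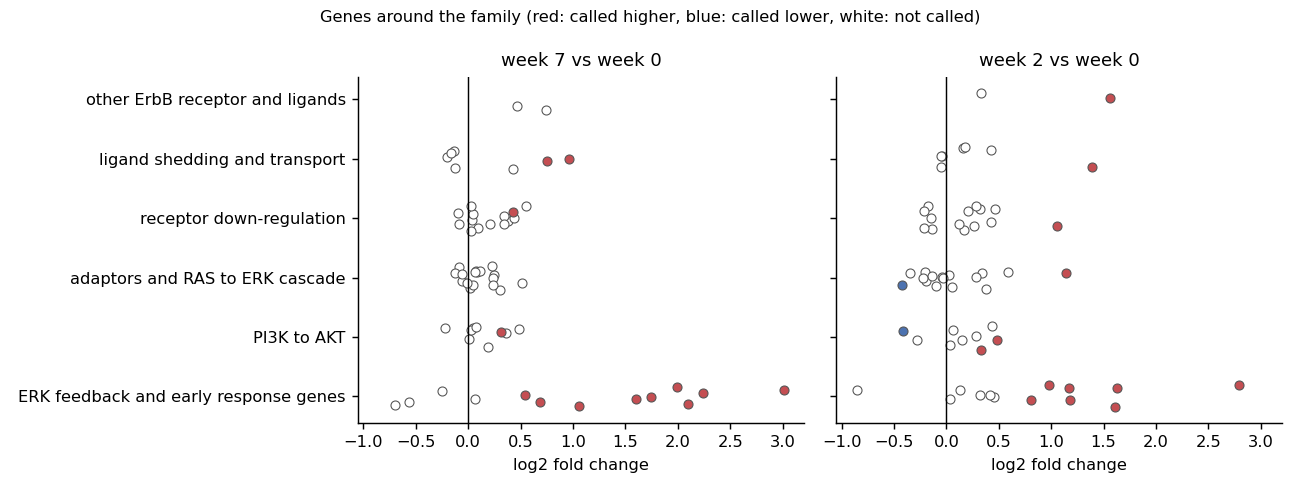
Log2 fold changes (horizontal axis) of tested genes in 6 lists around the family with over 12 counts in at least 3 libraries, for week 7 against week 0 (left) and week 2 against week 0 (right); points are spread vertically for view only. In the ERK feedback list 9 genes were called higher at week 7 and 7 at week 2, while the cascade list had 0 called at week 7.

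The genes most like Egfr, Erbb3 and Errfi1 in pattern were sought among 9170 genes whose mean reached 5 CPM, by the root-mean-square distance between log2 CPM profiles over 6 libraries, each centred on its mean. For Egfr they were Pfkfb3, a regulator of glycolysis (0.105), Hspa5, the chaperone BiP of the endoplasmic reticulum (0.107), and the pseudogene Serpina4-ps1 (0.116). Hspa5 had 1193, 327 and 565 CPM at weeks 0, 2 and 7. For Errfi1 they were Slc7a2, a transporter of cationic amino acids (0.0453), Slc22a23 (0.059) and Srebf1, a regulator of lipid synthesis (0.0665). Slc7a2 had 228, 222 and 398 CPM. For Erbb3, whose own spread was only 0.0647 on this scale, they were 2810004N23Rik (0.0161), March2 (0.0183) and Ndufa10 (0.0185). These distances are a description over 6 libraries that fall into 3 weeks.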

How the data were processed

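Libraries were built from poly-A RNA with the TruSeq V2 kit for paired-end sequencing, per the labels' protocols. Per the submitters' processing notes, Bowtie 0.12.2 and the build mm8 were used, in roles not given. Which program counted the reads is not given in the sources used here. Unscaled estimated counts per Ensembl gene were deposited by the authors. All were whole, and rounding changed 0 values. Low values are stepped: 68.3% to 69.6% of those from 4 to 43 were a multiple of 4 or 1 above it, so about 4 counts were taken as 1 read pair. Many values without steps would also meet this rule, so the share alone does not fix the step size. Symbols for 54409 identifiers came from GENCODE M21.

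Groups came from the sample titles. In R 4.3.3, edgeR 4.0.16 (filterByExpr, TMM, robust quasi-likelihood fit with 1 coefficient per week, all 6 libraries, 3 residual degrees of freedom, biological coefficient of variation 0.209) tested 15368 genes. SE and 95% intervals were derived from the F statistic. Levels per kb use all annotated exons joined. Alternatives were other scalings and filters, DESeq2 1.42.0, limma voom (limma 3.58.1), the 4 libraries compared only, a replicate block, each library left out, counts divided by 4 and an adjusted p under 0.01. Ratios per kb with the longest coding transcript were added after the data were seen. The edgeR fit was also run on simulated counts without the steps seen here, which checks the code and not these data. The members and lists were chosen with earlier results of these data known. Named are all members, other ErbB genes, up to 2 called genes per list, comparison and direction by adjusted p, and the 3 genes nearest in pattern to Egfr, Erbb3 and Errfi1. Further genes were chosen after their values were seen. These were Adam17, Grb2, Akt2, Cbl, Cblb, Ptpn11, Dusp4, Spred2, Lrat, Reln, Top2a, the hepatocyte markers and the shared ERK feedback genes. Figures were drawn with matplotlib 3.10.9 under Python 3.11.15.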

Additional observations from a re-analysis of the deposited data

How the results depend on the processing

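The counts of called members were 3, 1 and 4 (week 7 against week 0, week 2 against week 0, week 7 against week 2), and stayed within 1.5 times of these in every alternative run. The third was 3 wherever Hbegf lost its call, except without week 7 replicate 2, where Erbb2 was called. With the replicate block they were 3, 1 and 3; among members and list genes, the block also ended the calls of Hbegf, Gab2 (adjusted p = 0.0618) and Ptpn11 (0.0544) at week 7 against week 2, of Cblc, Pik3r1, Dusp4 (0.0575), Ier3 (0.0567) and Spred2 (0.0819) at week 7 against week 0, and of Spry2 at week 2 against week 0 (0.0513). Same-numbered libraries deviated with correlations of -0.0338, -0.0876 and -0.0795 between weeks over 9068 genes, so no strong shared deviation was seen. A weak pairing, or one in few genes, might not show in these values. Of 456 alternative values for single genes, 430 kept direction and call, and 10 changed sign, none of them called in the original fit. Erbb3 at week 7 against week 2 (log2 fold change 0.0066) was -0.0491 with upper-quartile scaling, -0.04818 with total counts only and -0.01171 to 0.024 with single libraries left out. Errfi1 at week 2 against week 0 was 0.0321 with total counts only. With single libraries left out, Erbb2 at week 7 against week 0 ranged from -2.09 to 0.214, Btc at week 7 against week 2 from -0.284 to 0.562, Hbegf at week 2 against week 0 from -0.030 to 0.579, and Nrg1 from -0.0257 to 0.812 (week 2 against week 0) and -0.263 to 0.873 (week 7 against week 2). Leaving out 1 of 2 libraries assumes the other varies like the remaining weeks. Of 576 alternative list counts, 66 moved by over 1.5 times. With the longest coding transcript as length, Errfi1 over Egfr was 3.78, 11.4 and 12.5, and Egfr over Tgfa was 19.7, 5.60 and 6.01. Depth limits Egf, Ereg, Areg and Erbb4 to statements about detection.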
